A study of Mus musculus with 6 samples.

Results

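The splenic CD8 population consisted of 3 of the 6 libraries of the study, the columns of the normalised count table with CD8 in their name. They are CD8 389, CD8 395 and CD8 387, and all 3 were described, with no library left out. Each held RNA of cells sorted by FACS as CD8+ from the spleen of C57BL/6 mice that received Angiotensin-II, a peptide that constricts vessels and raises blood pressure, from osmotic mini-pumps placed under the skin. The number in each name was taken to mark the mouse, which the labels do not say, and nothing in them states that the libraries came from separate mice. The sort gates beyond CD8, the dose, the duration, the age and the sex are not stated in the labels, and no library of untreated mice was used here, so no value below measures an effect of the hormone.

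CD8 is a coreceptor, a pair of CD8 alpha and CD8 beta chains on conventional cytotoxic T cells, that binds MHC class I while the T cell receptor reads the peptide held in it, and it brings the kinase Lck to the receptor. CD8 alpha is also carried, as a pair of alpha chains without beta, by the spleen's cross-presenting dendritic cells, which take up dead cells and show their peptides to CD8 T cells. A sort on CD8 can therefore hold both kinds of cell, and Cd8b1, the gene of the beta chain, was used as the measure of the T cell side, with each other gene described as varying together with it or apart from it.

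Recovered reads numbered 13568661 in CD8 389, 10662042 in CD8 395 and 14628599 in CD8 387, and each library had between 17021 and 17613 genes with at least 1 read. The libraries differed from each other by more than counting error, and the closest of the 3 pairs had a chi-square of 65.3 per degree of freedom. Over the 10999 genes with a mean normalised read count of at least 50, the median coefficient of variation was 18.7%, against 4.19% that counting error alone would give. CD8 395 stood apart in Rn18s, the gene of 18S ribosomal RNA, which took 2.79% of its reads, against 0.145% in CD8 389 and 0.0894% in CD8 387. Ratios between libraries also moved with the exon length of a gene. The median ratio of CD8 387 over CD8 395 was 0.872 for genes with exons of 1000 to 2000 bases and 1.17 for genes with more than 8000 bases. The ratio of CD8 395 over CD8 389 moved with length as well, with medians of 1.18 for genes of up to 1000 bases and 0.841 for the longest. The ratio of CD8 387 over CD8 389 varied less, with medians between 0.979 and 1.14. Contrasts between CD8 395 and either of the other libraries below can be of this size, and the part of length in any single gene was not tested. Values are normalised reads uncorrected for length, in the order CD8 389, CD8 395 and CD8 387, and ranks are per kb of exon unless another scale is named. In bulk samples like these, fewer cells of a type and less RNA per cell cannot be told apart.

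**Figure D1:**
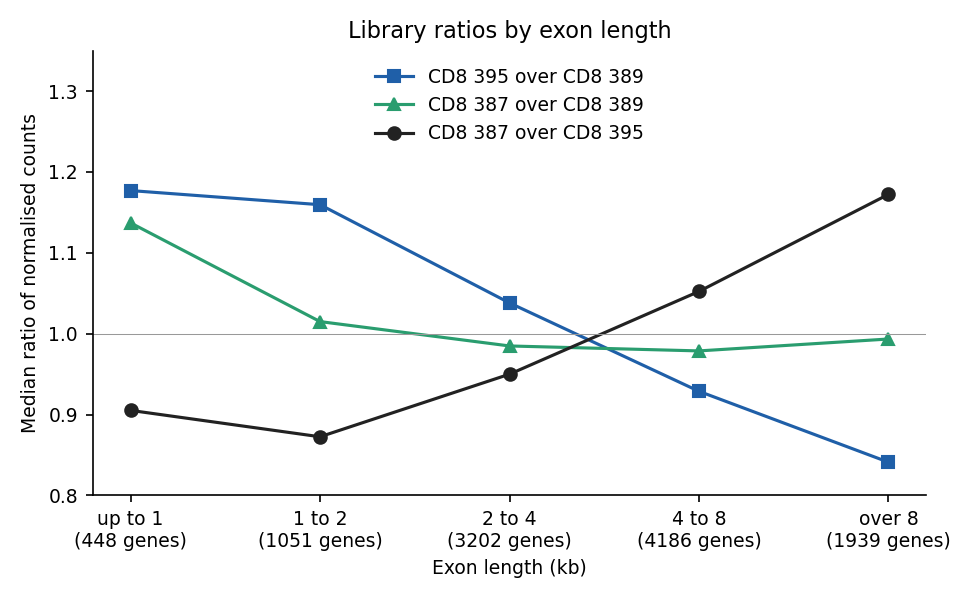
Median ratio of normalised read counts between pairs of CD8 libraries (vertical axis) in bins of exon length in kb (horizontal axis), for genes with a mean of at least 50, with the number of genes in each bin. The ratio of CD8 387 over CD8 395 is 0.872 in the second bin and 1.17 in the last one.

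Of the 4 genes taken as marks of the population, 3 were low in CD8 389 and high in CD8 395 and CD8 387. Cd8b1 had 2283 normalised reads in CD8 389, 6590 in CD8 395 and 5553 in CD8 387. Cd8a, the alpha chain, had 3871, 10001 and 8108 in the same order of libraries. Both genes were lowest in CD8 389 and highest in CD8 395. Klrd1, which encodes CD94, the partner chain of NKG2 receptors on natural killer cells and activated CD8 T cells, had 578, 1259 and 1075. It followed the same order with a smaller span, 2.18-fold for CD8 395 over CD8 389 with a 95% counting interval of 1.97 to 2.41, against 2.89-fold with an interval of 2.75 to 3.03 for Cd8b1. Itgae, which encodes CD103, an integrin chain of resident T cells and of cross-presenting dendritic cells, had 597 in CD8 389, 714 in CD8 395 and 885 in CD8 387. It was highest in CD8 387, where Cd8b1 was not, and its ratio to Cd8b1 varied 2.41-fold over the libraries, or 1.47-fold without CD8 389. All counting intervals cover counting error only, and with 3 libraries of 1 group no test between libraries is possible.

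As a check of the label, Cd8a was at 3871 to 10001 normalised reads in the CD8 libraries and 7.45 to 36.8 in the CD4 libraries of the study, and Cd8b1 at 2283 to 6590 and 63.3 to 108. Cd4, the gene of the other coreceptor, was at 38.9 in CD8 389, 130 in CD8 395 and 163 in CD8 387, so a low level of it remained in each. The ratio of Cd8a to Cd8b1 reads, each uncorrected for length, was 1.70 in CD8 389, with a 95% binomial interval of 1.61 to 1.78. It was 1.52 in CD8 395, with 1.47 to 1.57, and 1.46 in CD8 387, with 1.42 to 1.51. In reads uncorrected for length, the alpha chain was thus least matched by the beta chain in CD8 389, the library in which both were lowest. The intervals of CD8 395 and CD8 387 overlap. With values adjusted for exon length, Cd8a had 3873, 9926 and 8209 and Cd8b1 2401, 6036 and 5829. On that scale CD8 395 had the highest ratio, so the place of CD8 389 rests on the length adjustment.

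**Figure D2:**
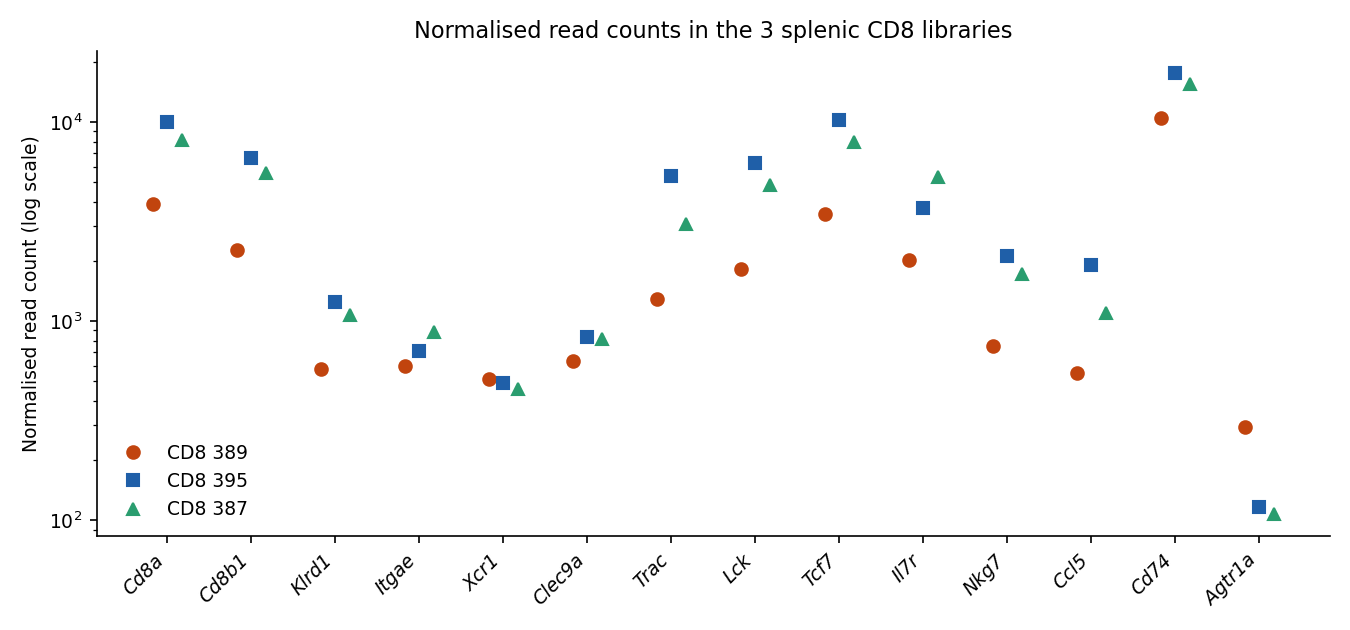
Normalised read count (log scale, no length correction) of 14 genes in each CD8 library, 1 point per library. Cd8a, Cd8b1, Klrd1 and the T cell genes are lowest in CD8 389, Xcr1 lies between 456 and 513 in all 3, and Agtr1a is highest in CD8 389 with 295.

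The T cell receptor complex varied together with Cd8b1. Of its 25 listed genes, all with a mean of at least 50, 21 stood in the order of Cd8b1 over the libraries, beside 24.2% of all genes counted, and none in the reverse order, beside 27.2%. The ratio to Cd8b1 was kept, with its highest value over the libraries at most 25% above its lowest, for 13 of the 25, beside 3.10% of all genes counted. The list's median ratio was 3.03 for CD8 395 over CD8 389 and 2.35 for CD8 387 over CD8 389, where all genes had medians of 0.98 and 0.99. The members were chosen for T cells with earlier results known, so these counts describe them and do not test them. With values adjusted for exon length, 22 stood in the order of Cd8b1 and 8 kept their ratio to it, beside 2757 and 468 of 10832 genes. Leaving out CD8 389, CD8 395 or CD8 387 gave 21, 22 or 14 that kept it. Over all genes, 5827 of 11088, 804 of 10957 and 627 of 10978 kept it in turn.

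Within the complex, the receptor chains varied more than the coreceptor. Trac, the constant part of the alpha chain, had 1299 normalised reads in CD8 389, 5378 in CD8 395 and 3069 in CD8 387, a wider span than that of Cd8b1. The sum of Trac, Trbc1 and Trbc2, which code for the constant parts of both chains, was 3423 in CD8 389, 13473 in CD8 395 and 8096 in CD8 387. Reads of Trbc1 and Trbc2 may be split between these near-identical genes, and all 3 are short transcripts, of the kind that were higher in CD8 395 than in CD8 387 over all genes. Lck, the kinase bound by the coreceptor, had 1839, 6252 and 4844 and kept its ratio to Cd8b1 within 1.18-fold, or within 1.30-fold, past the bound of 25%, with values adjusted for exon length. Cd3d, a signalling chain of the complex, had 681, 2063 and 1897, within 1.15-fold, and Cd2, an adhesion receptor, 516, 1674 and 1335, within 1.12-fold. Ptprc, the gene of the leukocyte phosphatase CD45, had 8490, 16506 and 16543, so it was level between CD8 395 and CD8 387. The whole list made up 0.226% of all normalised reads in CD8 389, 0.621% in CD8 395 and 0.518% in CD8 387.

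Over all genes with a mean of at least 50, 2661 stood in the order of Cd8b1 and 2997 in the reverse order, out of 6 possible orders. The ratio to Cd8b1 was kept by 341 genes, 2942 genes were level, with their own highest value at most 25% above the lowest, and 449 stood in the reverse order by 2-fold or more. These counts move with the set of libraries. Without CD8 389, CD8 395 and CD8 387 in turn, the order was shared by 5344, 5331 and 5240 genes and the ratio kept by 5827, 804 and 627. Level genes numbered 7538, 5318 and 4349, and genes reversed by 2-fold 182, 226 and 508. Cd8b1 itself had a ratio of 0.843 for CD8 387 over CD8 395, so a gene that was level between these libraries had nearly the same ratio to Cd8b1 in both, and the 5827 follows from the values of Cd8b1.

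**Figure D3:**
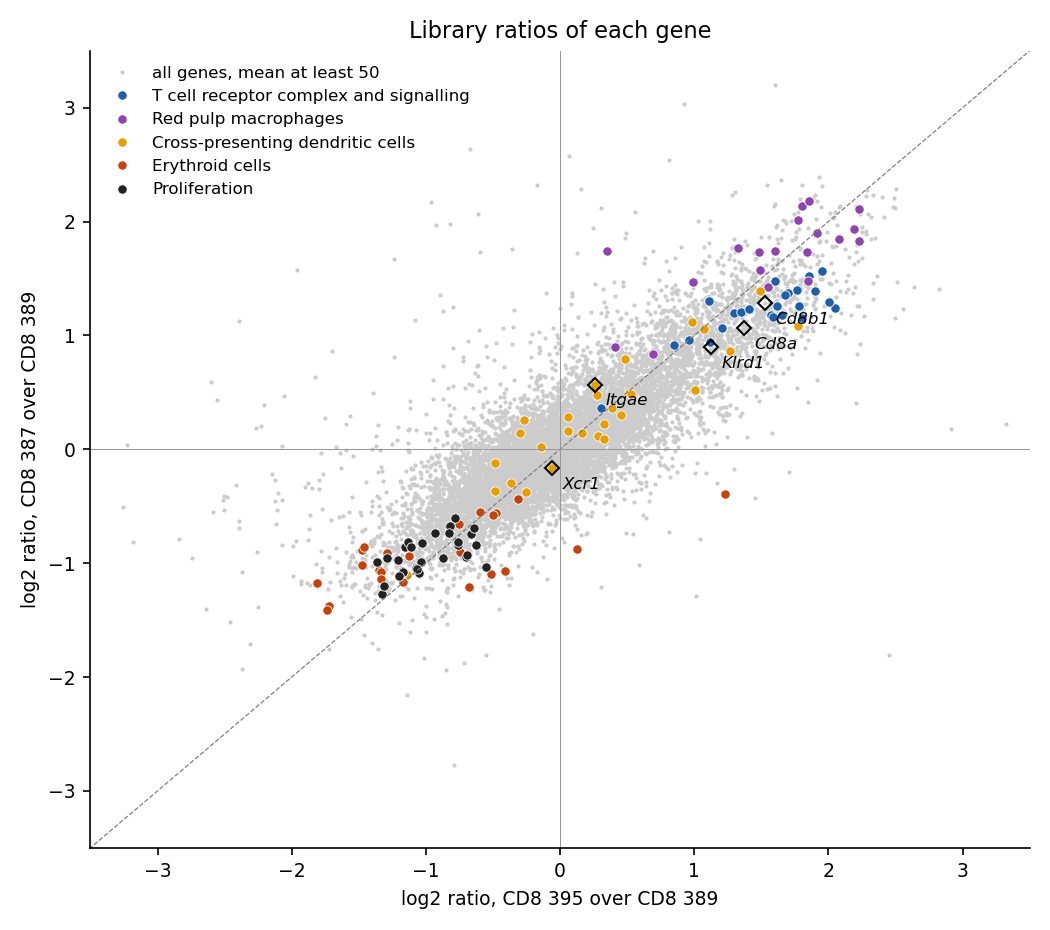
Each point is a gene with a mean of at least 50, placed by the log2 ratio of CD8 395 over CD8 389 (horizontal) and of CD8 387 over CD8 389 (vertical), with 5 gene lists in colour, marker genes as open diamonds and 10 genes outside the axes. T cell receptor and macrophage genes lie in the upper right, proliferation genes and most erythroid genes in the lower left, and dendritic genes around the centre.

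The genes closest to Cd8b1 in pattern, by the smallest highest over lowest ratio to it among 8338 genes with a mean of at least 200 and a descriptive name, included none of the T cell receptor list. Sting1, the adaptor that senses cyclic dinucleotides from cytosolic DNA, came first with 355 normalised reads in CD8 389, 1052 in CD8 395 and 871 in CD8 387, within 1.03-fold of a fixed ratio. Nkg7, a granule membrane protein of cytotoxic lymphocytes, was the third, within 1.05-fold. Cyba, the membrane subunit p22phox of NADPH oxidase, was the ninth, with 489, 1342 and 1202 and a ratio within 1.06-fold. S1pr4, a sphingosine phosphate receptor, and Selplg, the ligand of P-selectin, were the tenth and the twelfth. The others were Cnn2, Lfng, AB124611, Tgtp1, Phf1, Limd2 and Rgs14, none of them past 1.07-fold. All 12 share the libraries and their depth with Cd8b1, and 3 points give no correlation.

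The genes closest to the other markers were found in the same way. Hopx, Rcn3, Tec, Dennd1c, Gbp2 and Psmb8 lay nearest to Cd8a, with ratios within 1.03-fold. None of these 6 was among the 12 nearest to Cd8b1, although Cd8a kept its ratio to Cd8b1, so short sets like these need not overlap between genes of like pattern. Slamf6, a receptor of the SLAM family on T cells, Ms4a4b, Gpr183, which guides cells along oxysterols in the spleen, Cdkn2d, Tesk1 and Igkv8-27 lay nearest to Klrd1, with ratios within 1.03-fold. Adcy7, an adenylyl cyclase of immune cells, Lnx2, Sipa1l1, Zfp276, Parp14 and Cyld lay nearest to Itgae, also within 1.03-fold. Nr2c1, Prpf39, Suclg1, Cdk5rap1, Ubxn1 and Cldnd1 lay nearest to Xcr1, with ratios within 1.01-fold.

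The upstream DNA of 4 genes is given to set the kinds of pattern side by side, Cd8a and Cyba for genes that kept their ratio to Cd8b1, Xcr1 for a level gene and Trim10, an erythroid gene, for one in the reverse order by 2-fold or more. The table of promoters used here has no entry for Cd8b1, Itgae or Klrd1. Each is the 250 bases before the first listed start, 5′ to 3′ on the strand of the gene, from RefSeq on build GRCm38.p6, in which 361 of the 500 listed genes present in the count table have an entry. Cd8a is chr6:71373177-71373426 on the plus strand, Xcr1 chr9:123862030-123862279 on the minus strand, Cyba chr8:122432941-122433190 on the minus strand and Trim10 chr17:36869324-36869573 on the plus strand. No exon of a protein-coding gene in GENCODE M21, an annotation of that build, overlaps these windows. Capitals mark matches, on either strand, to TGTGGT, letters bound by RUNX factors, and to AGATAA, letters bound by the GATA family.
Cd8a: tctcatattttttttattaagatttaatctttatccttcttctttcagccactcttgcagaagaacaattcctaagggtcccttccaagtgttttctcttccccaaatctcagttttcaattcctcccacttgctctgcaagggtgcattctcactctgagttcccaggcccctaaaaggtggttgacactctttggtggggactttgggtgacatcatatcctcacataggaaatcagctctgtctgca
Xcr1: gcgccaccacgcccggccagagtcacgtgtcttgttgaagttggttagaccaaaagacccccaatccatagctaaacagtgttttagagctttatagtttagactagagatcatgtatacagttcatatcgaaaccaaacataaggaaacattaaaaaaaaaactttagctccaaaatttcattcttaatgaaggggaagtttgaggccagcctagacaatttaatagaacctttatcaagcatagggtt
Cyba: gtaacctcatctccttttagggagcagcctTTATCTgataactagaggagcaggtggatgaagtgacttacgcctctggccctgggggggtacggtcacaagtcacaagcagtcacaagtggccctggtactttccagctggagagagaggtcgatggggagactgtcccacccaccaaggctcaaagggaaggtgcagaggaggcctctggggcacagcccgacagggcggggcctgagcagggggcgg
Trim10: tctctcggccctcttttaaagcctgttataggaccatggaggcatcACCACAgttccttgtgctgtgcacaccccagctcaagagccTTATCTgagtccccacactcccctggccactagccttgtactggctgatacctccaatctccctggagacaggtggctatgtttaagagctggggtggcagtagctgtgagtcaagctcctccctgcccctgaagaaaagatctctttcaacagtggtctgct
The RUNX letters occur in Trim10 alone of the 4, 204 bases before its start, and the GATA letters in Cyba and Trim10, 220 and 163 bases before. Trim10 was picked from reversed erythroid genes that hold the GATA letters, so its GATA match was fixed by that choice. Also searched was CCGGAA, letters bound by ETS factors, which occurs in none of the 4, and no motif overlaps another in them. Among all 27025 promoters, 14.2% hold the RUNX letters, 10.3% the GATA letters and 12.2% the ETS letters. Among the 8588 promoters of genes with a mean of at least 50, from which the classes below are drawn, the shares were 10.9%, 5.75% and 24.4%. Among the 263 promoters of genes that kept their ratio to Cd8b1 the shares were 15.6%, 10.6% and 14.8%, and among the 332 of genes reversed by 2-fold or more they were 10.5%, 8.13% and 19.6%. A match is a description of letters and not a binding site.

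Transcription factors were ranked by normalised reads per kb of exon among 13398 genes, with rank 1 the most abundant. Tcf7, which encodes TCF-1, the factor of naive and memory T cells, was the most abundant of the 28 listed T lineage factors at rank 159, with library ranks of 121 to 396. It had 3446 normalised reads in CD8 389, 10222 in CD8 395 and 7960 in CD8 387, and kept its ratio to Cd8b1 within 1.08-fold. Ikzf1, the Ikaros factor of all lymphoid cells and their precursors, ranked 385 and was level, with 7407, 7413 and 7614. Klf2, a factor of quiescent recirculating T cells, ranked 605 with 702, 2660 and 1846, so it was lowest in CD8 389. Tcf3, the E protein E2A, ranked 684 and was highest in CD8 389 with 3947, against 3191 and 3134 in CD8 395 and CD8 387. Ets1 ranked 923 by exon length and 338 by coding length, and Klf2 1239 by coding length. Myb, a factor of blood precursors, ranked 1802 and was level.

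Of the 27 T lineage factors with a mean of at least 50, 13 stood in the order of Cd8b1 and 2 in the reverse order. The ratio to Cd8b1 was kept by 3, and 6 were level. In turn, the shares of all genes counted were 24.2%, 27.2%, 3.10% and 26.7%. With values adjusted for exon length, 18 stood in the order of Cd8b1, beside 2757 of 10832 genes counted. Runx3, the factor that silences Cd4 in CD8 T cells, ranked 3527 and had 730 in CD8 389, 1154 in CD8 395 and 1281 in CD8 387. Runx1, its relative, was level at 579, 578 and 596, and so was Zbtb7b, which encodes ThPOK, the factor of the CD4 lineage, at 259, 303 and 315, though its range passed 25% with values adjusted for exon length. Tox, chosen here after its values were seen, had 91.6, 264 and 211 and kept its ratio to Cd8b1 within 1.06-fold, or within 1.351-fold, past the bound, with values adjusted for exon length.

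Effector and memory factors were lower in rank. Id2, an inhibitor of E proteins in cytotoxic T cells, natural killer cells and cross-presenting dendritic cells, was their most abundant at rank 1309, with 702 in CD8 389, 1480 in CD8 395 and 1464 in CD8 387. Klf6 ranked 3533, Stat3 4593, Nr4a1 5507 and Stat4 5912. Of 19 members with a mean of at least 50, 8 stood in the order of Cd8b1, beside 24.2% of all genes counted. The ratio to Cd8b1 was kept by 2 of them, beside 3.10%. Those 2 were Tbx21, which encodes T-bet, with 68.5, 221 and 180, and Batf, with 56.4, 165 and 144. Zeb2, a factor of terminal effector cells and also of myeloid cells, ran the other way, with 1172 in CD8 389, 707 in CD8 395 and 654 in CD8 387.

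Factors of other lineages stood beside those of T cells in rank. Irf8, needed for cross-presenting dendritic cells and also used by B cells and monocytes, was the most abundant of the 18 myeloid and dendritic factors at rank 2430, or 1209 by coding length. It had 1764 in CD8 389, 2411 in CD8 395 and 2180 in CD8 387. Batf3, which those dendritic cells also require, ranked 7765 with 49.0, 167 and 104. Klf1, the master factor of red cell precursors, ranked 268, above every listed T lineage factor but Tcf7, with 3410, 2255 and 2334. None of the 10 erythroid factors stood in the order of Cd8b1 and 5 stood in the reverse order, or 8 with values adjusted for exon length. The shares of all genes counted, without that adjustment, were 24.2% and 27.2%.

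**Figure D4:**
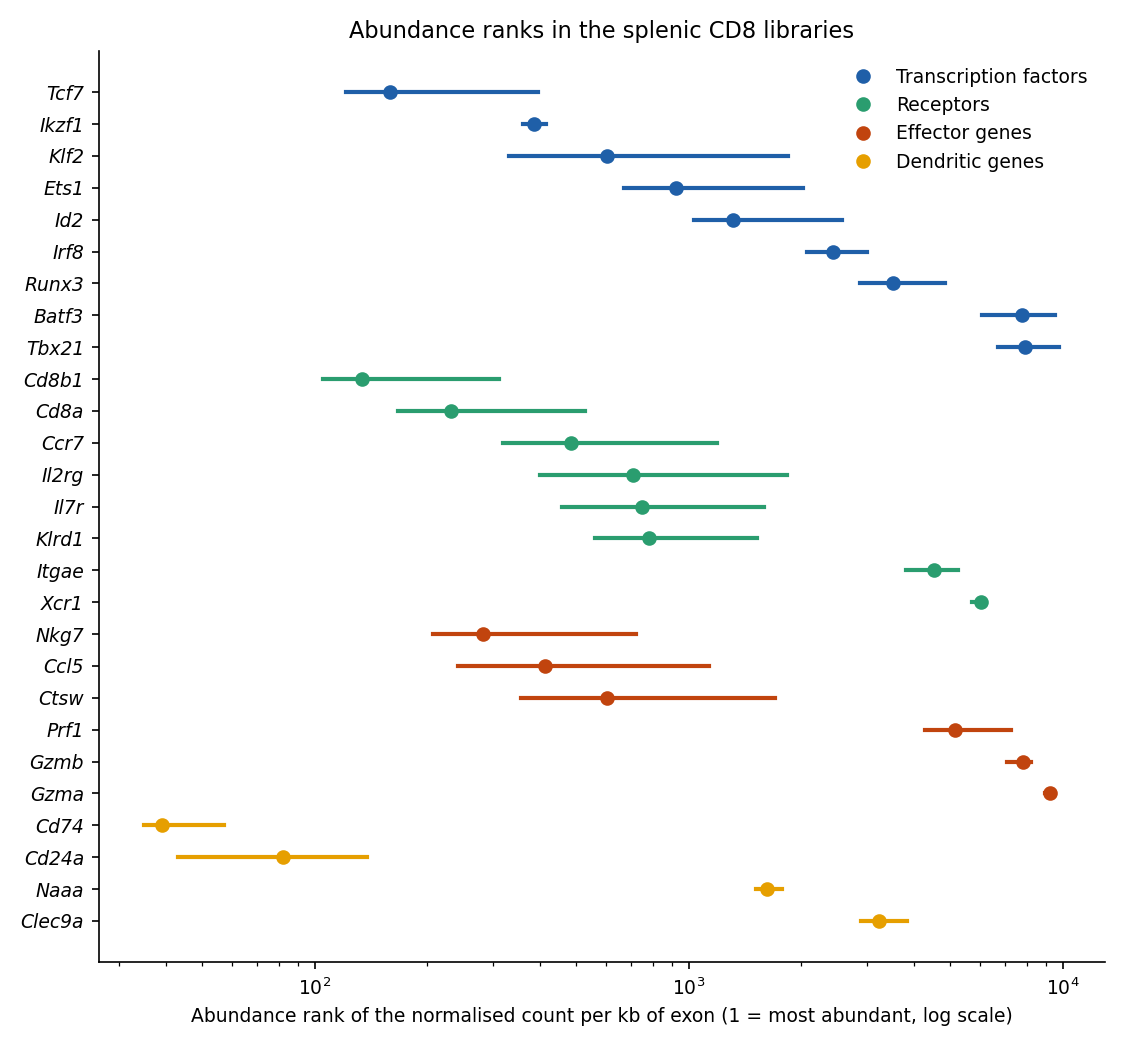
Abundance rank of the normalised count per kb of exon (log axis, 1 is the most abundant of 13398 genes) for transcription factors, receptors, effector genes and dendritic genes. Points are the rank of the mean and bars run from the lowest to the highest rank over the 3 libraries. Tcf7, Cd8b1 and Cd8a rank within the first 250, Xcr1 and Itgae past 4000.

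Among receptors, Cd8b1 ranked 134 and Cd8a 232 by exon length, while by coding length Cd8a ranked 139 and Cd8b1 178, so their order rests on the length used. Klrd1 ranked 785, or 1408 by coding length. Itgae ranked 4520, with library ranks of 3817 to 5255, or 7331 of 11994 genes by coding length. Of the cytokine receptors, Ifngr1, the ligand-binding chain of the interferon gamma receptor, ranked 506 and was level, with 2818 in CD8 389, 3049 in CD8 395 and 3298 in CD8 387. Il2rg, the common gamma chain, ranked 710 with 912, 2986 and 1993. Il7r, the survival receptor of naive and memory T cells, ranked 751 with 2042, 3693 and 5327, and was highest in CD8 387. Il2rb, shared by the receptors of interleukin 2 and interleukin 15, ranked 1042 with 1288, 2995 and 3523, also highest in CD8 387. Il27ra ranked 1105 and kept its ratio to Cd8b1 within 1.19-fold, and Il21r ranked 2169.

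Of 25 cytokine receptors with a mean of at least 50, 8 stood in the order of Cd8b1, beside 24.2% of all genes counted. The ratio to Cd8b1 was kept by 2, beside 3.10%. With values adjusted for exon length 5 of 25 kept it, beside 468 of 10832 genes counted, so that count lay above the share of all genes. Leaving out CD8 389, CD8 395 or CD8 387 gave 8, 11 or 6. Over all genes, 5827 of 11088, 804 of 10957 and 627 of 10978 kept it in turn.

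Homing receptors included both kinds of pattern. Itgb7, the beta chain that pairs with CD103 and with the alpha 4 integrin, ranked 409 and Itgb2, the beta chain of LFA-1, 463. Ccr7, which guides naive T cells and mature dendritic cells to T cell zones, ranked 484, or 992 by coding length, with 1091 in CD8 389, 2911 in CD8 395 and 2558 in CD8 387. It kept its ratio to Cd8b1 within 1.08-fold. Cxcr4, the receptor of CXCL12, ranked 554 with 1214, 2156 and 2104. Cxcr3, chosen after its values were seen, is a receptor of effector and memory T cells and had 175, 623 and 423. Itgb1 and Itga4, the chains of the integrin VLA-4, were highest in CD8 389. Itga4 had 9576 there, 6336 in CD8 395 and 7839 in CD8 387, and Itgb1 4532, 2860 and 3518. Cd44, the hyaluronan receptor used to mark activated T cells, was level at 2285, 2180 and 2246. Of 24 homing receptors counted, 10 stood in the order of Cd8b1, 4 in its reverse, 5 kept their ratio and 2 were level. The shares of all genes counted were 24.2%, 27.2%, 3.10% and 26.7%. Ccr8 was at or under 10 in every library.

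Xcr1, the receptor through which cross-presenting dendritic cells meet XCL1 from CD8 T cells, was also level, with 513 in CD8 389, 492 in CD8 395 and 456 in CD8 387. Its ratio to Cd8b1 varied 3.01-fold over the 3 libraries and 1.102-fold without CD8 389. It ranked 6029, or 4532 by coding length, so its order with Itgae also rests on the length used.

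Natural killer type receptors were few. Tyrobp, the adaptor DAP12 of natural killer and myeloid cells, ranked 523 and kept its ratio to Cd8b1 within 1.14-fold, with 361 in CD8 389, 913 in CD8 395 and 827 in CD8 387. Klra13-ps, a pseudogene of the Ly49 family whose reads may be shared with its relatives, had 232, 549 and 388. Only 9 of the 26 listed had a mean of at least 50. Of these, 6 stood in the order of Cd8b1, beside 24.2% of all genes counted. Klrc3, Klra4, Klra8 and Klra17 were at or under 10 in every library, and Ncr1, a defining receptor of natural killer cells, had 5.55 in CD8 389, 10.5 in CD8 395 and 12.6 in CD8 387.

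Costimulatory receptors held examples of several patterns. Cd27, a TNF receptor family member on naive and memory T cells, had 686 in CD8 389, 2194 in CD8 395 and 1755 in CD8 387, within 1.11-fold of a fixed ratio. Cd96 had 400, 952 and 869, within 1.21-fold. Btla had 912, 1250 and 1055, and Havcr2, the gene of TIM-3, was level at 345, 353 and 387. Tnfrsf14, which encodes the ligand of BTLA, was the most abundant of the list at rank 897 and had 1211, 556 and 1192, the only one of 17 counted members in the reverse order. Of the 17, 11 stood in the order of Cd8b1, or 9 with values adjusted for exon length, beside 24.2% of all genes counted. The ratio to Cd8b1 was kept by 4 of them with and without the adjustment, beside 3.10% without it. With the adjustment, 2757 and 468 of 10832 genes stood in that order and kept their ratio. Pdcd1, the gene of PD-1, had 15.7, 18.6 and 42.0, and was not counted.

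Effector genes were led by Nkg7 at rank 281, or 524 by coding length, with 749 in CD8 389, 2128 in CD8 395 and 1737 in CD8 387. Ccl5, a chemokine stored by memory CD8 T cells, ranked 413 with 551, 1913 and 1098. Ctsw, a cathepsin of cytotoxic cells, ranked 604 with 776, 2595 and 1964 and kept its ratio to Cd8b1 within 1.16-fold. Lamp1, the lysosomal membrane protein, Srgn, the granule proteoglycan, and Serpinb6b, a granzyme inhibitor, were level. Serpinb6b had 429, 428 and 431. Cst7, an inhibitor of cathepsins, ranked 1742.

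The killing molecules themselves were lower. Prf1, the pore-forming protein perforin, had 187 in CD8 389, 423 in CD8 395 and 435 in CD8 387 and ranked 5166. Gzmb had 75.9, 115 and 93.1, Gzma 31.5, 41.8 and 45.3 and Gzmk 7.40, 16.3 and 20.1. Ifng, the gene of interferon gamma, had 2.78, 11.6 and 5.87, at the value of 3 reads in CD8 389, and Gzmc and Il2 were at or under 10 in every library. Of 16 effector genes with a mean of at least 50, 10 stood in the order of Cd8b1, 3 kept their ratio and 5 were level. The shares of all genes counted were 24.2%, 3.10% and 26.7%, so the level count lay near its share. With values adjusted for exon length, 8 of the 16 stood in that order and 5 kept their ratio. Of 24 genes listed for CD8 subsets 12 stood in that order and 8 kept their ratio, or 14 and 10 with the adjustment. With the adjustment, 2757 and 468 of all 10832 genes counted did so.

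Cross-presenting dendritic genes had a median ratio of 1.21 for CD8 395 over CD8 389 and 1.21 for CD8 387 over CD8 389, where Cd8b1 had 2.89 and 2.43. Batf3, described above, exceeded Cd8b1 in span with 3.41-fold. The list of 30 cross-presenting dendritic genes had 28 in the table, all with a mean of at least 50. Of the 28, 13 stood in the order of Cd8b1, 1 kept its ratio to it and 6 were level. The shares of all genes counted were 24.2%, 3.10% and 26.7%. Slc6a19, an amino acid transporter that is one of 8 genes put on the list because earlier results had them high in these libraries, was the one that kept its ratio. Both shares, of kept ratios and of level genes, lay near those of all genes counted, so neither sets the list apart, while its median ratios lay between those of all genes and those of the T cell receptor list. Without those 8 genes, 0 of 20 kept it and 5 were level. Without CD8 389, CD8 395 or CD8 387, 16, 4 or 3 of the 28 kept their ratio and 22, 13 or 11 were level. Over all genes, 5827 of 11088, 804 of 10957 and 627 of 10978 kept it in turn. Level genes numbered 7538, 5318 and 4349.

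Clec9a, the receptor by which these cells take up dead cells, had 636 in CD8 389, 833 in CD8 395 and 818 in CD8 387 and ranked 3224. Naaa, an amidase of these cells, was level at 1467, 1646 and 1617 and ranked 1619, and Ppt1, a lysosomal enzyme, ranked 666 and was level too. Flt3, the receptor of the growth factor for dendritic cells and also a gene of blood precursors, was level at 610, 635 and 681. Zbtb46, a factor of classical dendritic cells that erythroid precursors also carry, had 818, 583 and 633. Wdfy4, which cross-presentation requires, had 2994, 2487 and 3585 and ranked 2563, and Lcn4, one of the 8 added genes, 158, 380 and 288. Cd24a, used to mark these dendritic cells and also abundant on red cell precursors, had 19514, 8840 and 9097 and ranked 82. The summed list was 37778 in CD8 389, 29373 in CD8 395 and 31132 in CD8 387. Without the 8 added genes and Cd24a it was 16629, 18323 and 19799, a 1.19-fold range. The genes of MHC class II presentation, which dendritic cells, B cells and macrophages share, ran with Cd8b1 but over a shorter span. Cd74, the invariant chain, ranked 39 with 10542, 17741 and 15613. Of 14 members, 13 stood in the order of Cd8b1, beside 24.2% of all genes counted. The ratio to Cd8b1 was kept by 1 of these, beside 3.10%.

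**Figure D5:**
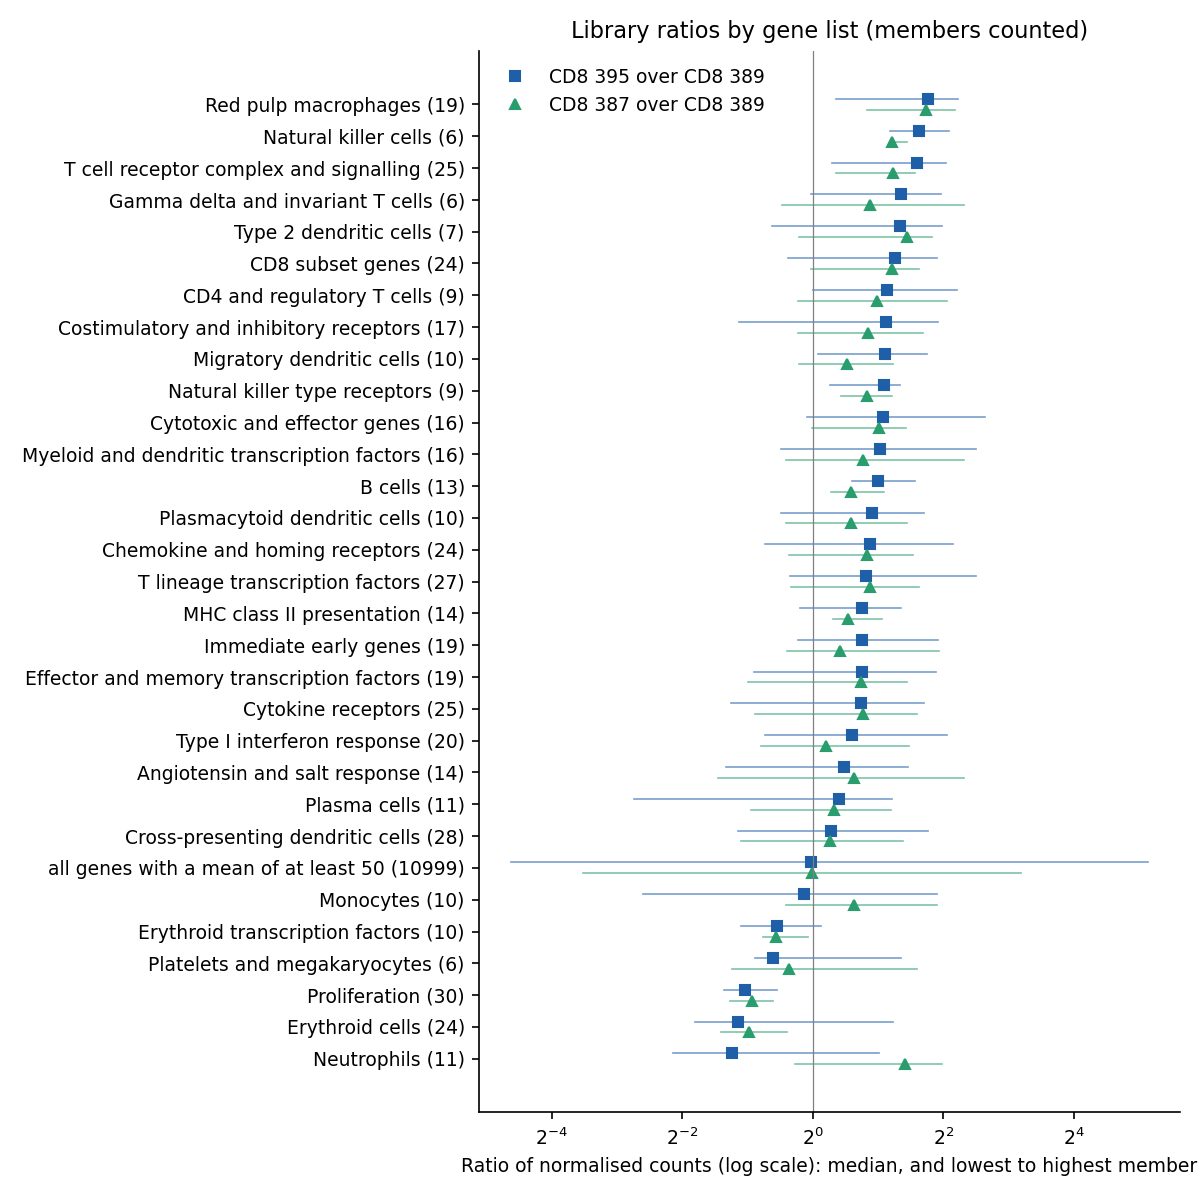
Ratio of normalised counts (log scale) of CD8 395 (squares) and CD8 387 (triangles) over CD8 389, for lists with at least 6 members of mean 50 or more, with the number counted in brackets. Points are the median over members and lines run from the lowest to the highest member. The T cell receptor list has medians of 3.03 and 2.35, the cross-presenting dendritic list 1.21 and 1.21, and the proliferation list 0.489 and 0.522.

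Most genes of red cell precursors and of dividing cells stood in the reverse order of Cd8b1. Car2, a carbonic anhydrase of red cells, had 36719 normalised reads in CD8 389, 16840 in CD8 395 and 19228 in CD8 387 and ranked 35. Car1 ranked 17 and was also highest in CD8 389. Mki67, a mark of dividing cells, had 30040, 12000 and 12475. None of 24 erythroid genes stood in the order of Cd8b1, beside 24.2% of all genes, and 15 stood in the reverse order, beside 27.2%. By 2-fold or more 13 did so, beside 4.08% of all genes counted. Without CD8 395, all 24 were higher in CD8 389 than in CD8 387. Of 30 proliferation genes 20 stood in the reverse order, beside 27.2% of all genes counted. By 2-fold or more 15 of them did so, beside 4.08%. Without CD8 395 or CD8 387 all 30 were highest in CD8 389. Over all genes, 5331 of 10957 and 5240 of 10978 were instead lowest there. The erythroid list summed to 1.43% of all normalised reads in CD8 389, 0.734% in CD8 395 and 0.777% in CD8 387, which in each library was more than the T cell receptor list. Globin genes, part of that list, summed to 14838, 13654 and 7555, so they differed from the rest in CD8 395. Their median ratio of CD8 395 over CD8 389 was 0.923, against 0.425 for the list without them. For CD8 387 over CD8 389 the medians were 0.510 and 0.509. The part of these cells in the values above was not tested.

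All 19 red pulp macrophage genes and all 13 B cell genes counted were, like Cd8b1, lowest in CD8 389. The red pulp macrophage list summed to 12048 in CD8 389, 34224 in CD8 395 and 38011 in CD8 387, and 19 of its 20 genes had a mean of at least 50. Hmox1, the heme-degrading enzyme of these macrophages, had 1186, 4057 and 4797, and C1qb 443, 2027 and 1699. Of the 19, 8 stood in the order of Cd8b1, beside 24.2% of all genes counted, and 2 kept their ratio to it, beside 3.10%. With values adjusted for exon length 5 stood in that order, near the share of all genes, 2757 of 10832. All 19 were lowest in CD8 389 whether CD8 395 or CD8 387 was left out. Over the 3 libraries, 24.2% of all genes had CD8 389 lowest and CD8 395 highest, and 15.3% had CD8 389 lowest and CD8 387 highest. Ighm, the heavy chain of IgM, ranked 4 with 62053, 117988 and 109361. Of 13 B cell genes counted, 12 stood in the order of Cd8b1, beside 24.2% of all genes counted. Cd79a, a defining B cell receptor chain, was at 186, 372 and 279. Vsig4 was at or under 10 in every library.

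The B cell list summed to 63976, 122206 and 112399. With values adjusted for exon length, the sum of CD8 387 over CD8 395 was 1.03, against 0.920 without adjustment. Monocyte genes summed to 8425 in CD8 389, 15339 in CD8 395 and 16761 in CD8 387. Neutrophil genes summed to 6489, 2056 and 8136, so they were lowest in CD8 395, and Ly6g was at or under 10 in every library. Of 6 natural killer genes counted, 5 stood in the order of Cd8b1, beside 24.2% of all genes counted. The 6 were Nkg7, Tyrobp, Eomes, Fcer1g, Prf1 and Xcl1, which CD8 T or myeloid cells can carry too. Ncr1, Klrb1c, Klre1, Klra8 and Klra4 had means under 50 and were not counted. The count therefore does not describe natural killer cells as such. The list of CD4 and regulatory T cells summed to 1086, 2210 and 2002. The part of these cells in the values of the T cell genes was not tested.

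Lists of rarer cells held fewer genes with a mean of at least 50. Of these, 4 of 7 type 2 dendritic genes, 6 of 10 plasmacytoid dendritic genes and 8 of 10 migratory dendritic genes stood in the order of Cd8b1, as did 9 of 16 myeloid and dendritic factors. So did 5 of 11 plasma cell genes, 5 of 9 genes of CD4 and regulatory T cells, 3 of 6 gamma delta and invariant T cell genes, 3 of 10 monocyte genes, 0 of 11 neutrophil genes, 0 of 6 platelet genes and 1 of 2 stromal genes. Beside these counts stand the 24.2% of all genes counted, near which 3 of 10 lies. The type 2 dendritic list had median ratios of 2.53 for CD8 395 and 2.72 for CD8 387 over CD8 389, where Cd8b1 had 2.89 and 2.43. Its 7 counted genes were Sirpa, Clec12a, Dtx1, Rbpj, Cd300a, Ltb and Irf4, and which cells their reads came from was not tested. Cd209a, Clec10a and Clec4a4 of the same list had means under 50 and were not counted. These medians therefore do not describe type 2 dendritic cells as such. Among genes that define such cells, Mgl2, Cox6a2, Il23r, Ppbp, Cdh5, Kdr, Col1a1 and Col1a2 were each at or under 10 in every library. Jchain, which joins IgM and IgA units, ranked 96 with 8147 in CD8 389, 13323 in CD8 395 and 12038 in CD8 387.

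The 12 genes with the widest spans in the reverse order of Cd8b1 included 5 immunoglobulin genes and 3 genes of granule enzymes, a grouping made after the genes were seen. Ighg1, the heavy chain of IgG1, had 10247 in CD8 389, 416 in CD8 395 and 5606 in CD8 387. Ighg2c, Ighg2b, Ighv5-6 and Ighv1-80 are further immunoglobulin genes, whose reads may be shared among relatives. Mpo, the myeloperoxidase of granule-forming precursors, had 3954, 908 and 3283, and Prtn3 and Ctsg, proteases of the same granules, followed. Prss34, a protease of basophils and mast cells, F13a1, Zfp808 and Hipk2 were the others. The rule itself makes all 12 lowest in CD8 395. CD8 387 lay nearer to CD8 389 for Mpo and nearer to CD8 395 for Ighv5-6, which had 860, 166 and 226. Of the listed genes, 1 of 11 plasma cell genes and 3 of 11 neutrophil genes stood in the reverse order, beside 27.2% of all genes counted.

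Genes of the angiotensin system and of its oxidase were described from a list of 24, of which 14 had a mean of at least 50. Agtr1a, the main receptor of angiotensin II, had 295 in CD8 389, 117 in CD8 395 and 107 in CD8 387 and ranked 7971. It was thus highest in the library with the least Cd8b1, but lowest in CD8 387, so not in the reverse order of Cd8b1. Also highest in CD8 389 were all 30 proliferation genes and 22 of the 24 erythroid genes counted, all but Hba-a2 and Hbb-bs. Among all genes counted, 27.2% had CD8 389 highest and CD8 395 lowest, and 15.5% had CD8 389 highest and CD8 387 lowest. Which cells the Agtr1a reads came from was not tested. Rac2, a GTPase that the phagocyte oxidase uses, ranked 196 with 4222, 9705 and 7522, and Cyba, described above, 578. Rac1 ranked 883, Atp6ap2, the receptor of prorenin, 2372, Lnpep, the angiotensin IV receptor, 3209 and Ncf4, an oxidase subunit, 3231. Ace, the converting enzyme, chosen after its values were seen, had 22.2, 19.8 and 111 and was highest in CD8 387. Nr3c2, the mineralocorticoid receptor, and Nox1, an oxidase, were at or under 10 in every library. Of the 14, 4 stood in the order of Cd8b1 and 2 in the reverse order, beside 24.2% and 27.2% of all genes counted, so the list does not stand apart by these counts.

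Genes of stimulated cells varied within the same libraries. Junb, an immediate early factor, had 1575 in CD8 389, 3550 in CD8 395 and 2314 in CD8 387. Of 19 immediate early genes counted, 9 stood in the order of Cd8b1, beside 24.2% of all genes counted. Dusp2, a phosphatase of activated lymphocytes, had 480, 1647 and 1837. Ifi27l2a, an interferon-induced gene, had 129, 535 and 359. Of 20 genes of the type I interferon response, 12 stood in the order of Cd8b1 and 4 were level. The shares of all genes counted were 24.2% and 26.7%. None of the 20 stood in the reverse order, beside 27.2% of all genes counted. With values adjusted for exon length, 13 of 20 stood in the order of Cd8b1 and 2 in the reverse order. Isg20 had 1664, 1002 and 961 and was highest in CD8 389, so not every member followed the order of Cd8b1.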

How the data were processed

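RNA-seq of 6 libraries was used, of which the 3 labelled CD8 are described. The deposited values are a signal per gene, gene read counts divided by 1 size factor per library, which the authors made. The submitters' processing notes name the tools STAR (2.7.5c), featureCounts (2.0) and DESeq2 and the build GRCm39, without their roles. Which annotation was counted, and whether strand was used, is not given in the sources used here, so overlapping and antisense genes cannot be told apart.

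Dividing by the value of 1 read gave whole numbers for 100% of the values in every library, to within 0.001 reads, and these were taken as the reads. The limit allowed by a count of 0 is 3 reads, worth 2.52 to 3.49 normalised reads in the CD8 libraries. The table has 17832 genes. Levels of different genes were compared per kb of exon, with union exon lengths from GENCODE M21 (an older build, used for lengths only), over genes with a mean of at least 10. Over genes with a mean of at least 50, each gene was classed by its order over the libraries, by its ratio to Cd8b1 (kept where the highest was at most 25% above the lowest), as level (its own highest at most 25% above its lowest) or as reversed (by 2-fold). There is no test, because 3 libraries of 1 group allow none.

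The genes named are the 4 markers, up to 6 members per list with the highest mean per kb, members at or under 10 in every library (given by name or in counts), and the genes nearest to or farthest from the markers. Some genes that this rule names are not reported here. The members and the 32 lists (500 of 525 genes in the table) were chosen with earlier results of these data known. Alternatives were TMM factors (edgeR 4.0.16), scaling to total reads, other means and bounds, other lengths, other genes in place of Cd8b1 and leaving out each library. Values adjusted for exon length, in which each library was divided by its median ratio to the mean among genes of like length, and scaling to total reads without Rn18s were added after seeing the data. The recovery and the classes were tested on simulated data, with Python 3.11.15, numpy 2.4.6 and pandas 2.3.3.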

Additional observations from a re-analysis of the deposited data

How the results depend on the processing

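No paired analysis was possible because the CD8 libraries were set against no other group and 1 library number alone occurs in both groups. The 4 counts over all genes stayed within 1.5 times of the values reported with TMM factors, with scaling to total reads (with and without Rn18s), with values adjusted for exon length and with Cd8a or the T cell receptor sum in place of Cd8b1, where each of these was run. Genes in the order of Cd8b1 numbered 4134 with no filter on the mean. Genes that kept their ratio to Cd8b1 numbered 226 at a mean of at least 200, and 72 and 885 at bounds of 1.1-fold and 1.5-fold. Level genes numbered 693 and 6258 at those bounds. Genes in the reverse order numbered 714 at a mean of at least 10, 1035 with no filter, 76 at 3-fold and 1439 at 1.5-fold. Leaving out 1 library gave 5240 to 5344 genes in the order of Cd8b1, 627 to 5827 that kept their ratio, 4349 to 7538 level and 182 to 508 reversed by 2-fold, where all 3 gave 449. With 2 libraries the conditions on order, ratio and level are looser, and the cause of the change in the reversed count was not tested. The B cell sum of CD8 387 over CD8 395 was 0.920 and became 1.03 with values adjusted for exon length, the 1 direction that reversed. Ranks rest on the length used: without length correction Nkg7 ranked 1924, Klrd1 3369 and Ets1 250. The value of 3 reads sets the depth limit, which touches Ifng, Il2 and Gzmc.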
